A study of Mus musculus with 4514 samples.

Results

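Hepatocytes of the first days after birth were compared between the ages labelled P3 and P0 (postnatal days). All cells with these age labels in the mSTRT-seq data were taken, by label alone; they are 6.38% of the 4514 samples, which fall into 38 groups in a study of mouse liver maturation, and 59.7% of them are P3 cells. In this method single cells are picked into lysis buffer in wells, each well's cDNA is barcoded, and the barcoded cDNA is pooled. Both ages carried the same alleles, Alb-Cre (a recombinase driven by the albumin promoter, active in hepatocytes) and Rosa-tdTomato (a reporter that such cells switch on), and no treatment is named. No label names an animal, a litter or a library, so each age counted as 1 pool of cells. No test and no p-value was therefore possible, and age cannot be told apart from animal or library.

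Birth ends the supply of glucose through the placenta, and the newborn liver must make glucose and burn fat until milk is digested. Hepatocytes do both, clear nitrogen through the urea cycle, build cholesterol and fatty acids, and secrete most plasma proteins, complement included. Many enzymes of the adult liver for drugs, steroids and bile acids are switched on only after birth. Usf1 encodes a basic helix-loop-helix transcription factor that binds the E-box CACGTG, and Fgg encodes the gamma chain of fibrinogen, the clotting protein; these are the pair of marker genes given for this stage.

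The P3 cells held 25702986 gene counts and the P0 cells 23254585. The lowest, median and highest counts per cell were 34651, 145920.5 and 324203 at P3, against 47340, 193051.5 and 420155 at P0, and the median cell had a count for 6499 genes at P3, against 6118 at P0. Levels are counts per 1000000 gene counts of the pool (CPM), spike-in RNA left out. Intervals of levels are exact Poisson ones. Those of ratios come from the exact binomial interval of the P3 share of a gene's counts in the pools. All are at 95% and cover counting error only. All 8 hepatocyte markers (Alb, Ttr, Apoa1, Apoa2, Serpina1a, Trf, Fgg, Afp) were measured at both ages, and 1 of them (Ttr) differed by 2-fold. Xist, the RNA of the inactive X chromosome, had 0 counts at P3 and at P0, and the Y-linked gene Ddx3y stood at 52.1 CPM at P3, against 55 CPM at P0, so both pools read as male. The cells fell into groups by their share of spike-in counts, which no label names and which were set here after the data were seen. The P3 pool is made of 40 cells at 1.7% or more, 87 at 0.2 to 1.7% and 45 under 0.2%. The P0 pool is made of 39 cells at 1.7% or more and 77 at 0.2 to 1.7%. These groups mostly follow the cell numbers in the labels. At P0 the 39 cells carry the lowest numbers and the 77 cells the rest. At P3 the 45 cells under 0.2% carry the highest numbers. The P3 cells at 1.7% or more carry the lowest numbers, save for a few later ones. What this order stands for is not given in the labels. Each gene was also compared in the 6 pairings of a P3 group with a P0 group, and the range over these pairings is given below for some genes. Where no range is given, the counting interval does not show how even a gene was over the groups.

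Of 7676 measured genes (a mean of at least 5 CPM over the pools and a count in at least 10% of the cells of an age), 665 (8.66%) were at least 2-fold higher at P3 and 400 (5.21%) at least 2-fold lower, 13.9% in either direction. The median log2 ratio of P3 over P0 was -0.02, and 66.6% of the genes lay within 1.5-fold. Higher genes reached further, since 2.54% of genes were at least 4-fold higher and 0.638% at least 4-fold lower. The 2-fold mark was passed in the same direction in all 6 pairings by 3.26% of genes that were higher at P3 and by 1.35% that were lower, 4.61% in either direction. In the text, higher and lower at P3 mean past this 2-fold mark in the pools unless a value is given alone.

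**Figure D1:**
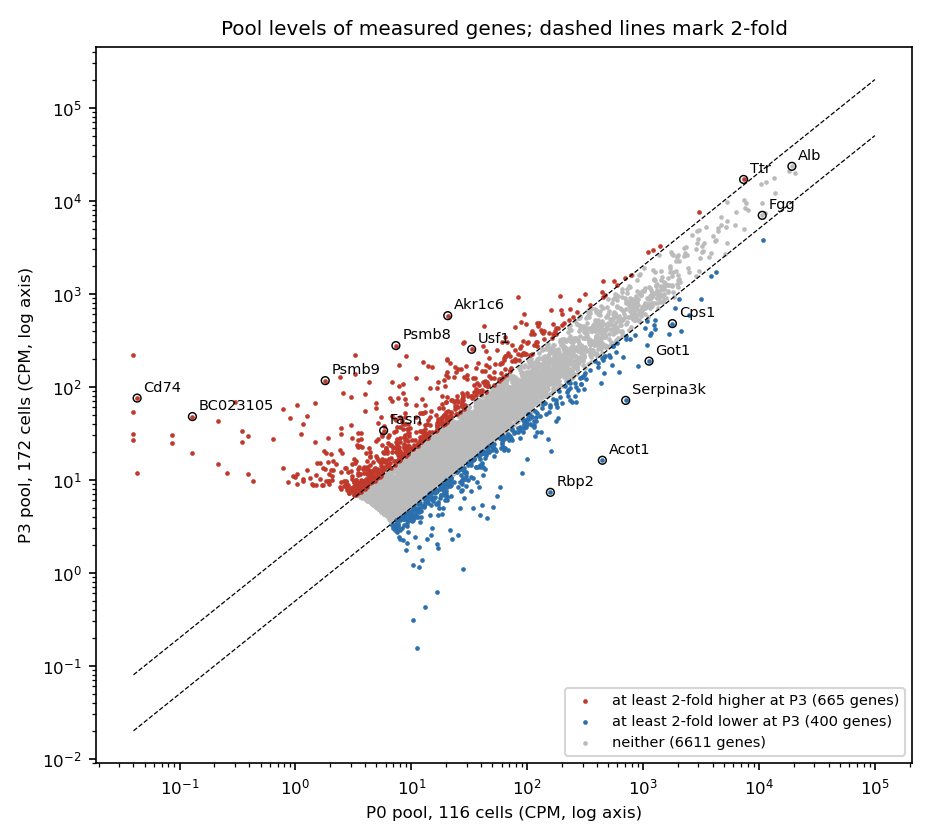
Level of each measured gene in the P3 pool (vertical, CPM, log axis) against the P0 pool (horizontal, CPM, log axis), 1 point per gene, with dashed lines at 2-fold. Genes without a P0 count are drawn at the left edge; 665 genes lie above the upper line and 400 below the lower one, and Usf1 lies above while Fgg lies inside the lines.

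Of the markers, Usf1 was the one that differed. Over single cells its lowest, median and highest levels were 0, 207.9 and 820.4 CPM at P3, against 0, 18.8 and 225.4 CPM at P0. The ranges overlapped, but 43.6% of the P3 cells lay above the highest P0 cell. The P3 pool stood at 252.3 CPM (246.2 to 258.5), against 33.1 CPM (30.8 to 35.5) in the P0 pool, a 7.62-fold difference, or a log2 ratio of 2.93, counting interval 2.82 to 3.04, and a range of 2.70 to 3.15 over the 6 pairings. A count was found in 98.3% of P3 cells (exact binomial interval 95 to 99.6%), against 79.3% of P0 cells (70.8 to 86.3%); with each cell thinned to 50000 counts the shares were 97.6% at P3 and 56.5% at P0. Its paralog Usf2, which binds the same E-box, stood at 19.1 CPM at P3 and 20.7 CPM at P0, a log2 ratio of -0.12, counting interval -0.31 to 0.06.

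Fgg was abundant in every cell at both ages. Its lowest, median and highest levels were 3016, 6753 and 13276 CPM at P3, against 5778, 10810.4 and 19119.5 CPM at P0, so that P3 cells lay lower as a set but the ranges overlapped. The pools stood at 6942 CPM at P3 and 10655 CPM at P0, a log2 ratio of -0.62, counting interval -0.63 to -0.61, which does not pass 2-fold. The other fibrinogen chains lay on the same side, Fgb at a log2 ratio of -0.63 and Fga at -0.35. Albumin (Alb), the main plasma protein, stood at 23364 CPM at P3 and 19212 CPM at P0, and Afp, the fetal counterpart of albumin, at 15038 CPM at P3 and 10439.7 CPM at P0. The summed level of the 8 hepatocyte markers, Alb and Afp included, was uneven over the spike-in groups. It was 101599, 116151 and 135604 CPM in the P3 groups of 1.7% or more, 0.2 to 1.7% and under 0.2%. In the P0 groups of 1.7% or more and 0.2 to 1.7% it was 94329.5 and 101439 CPM.

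**Figure D2:**
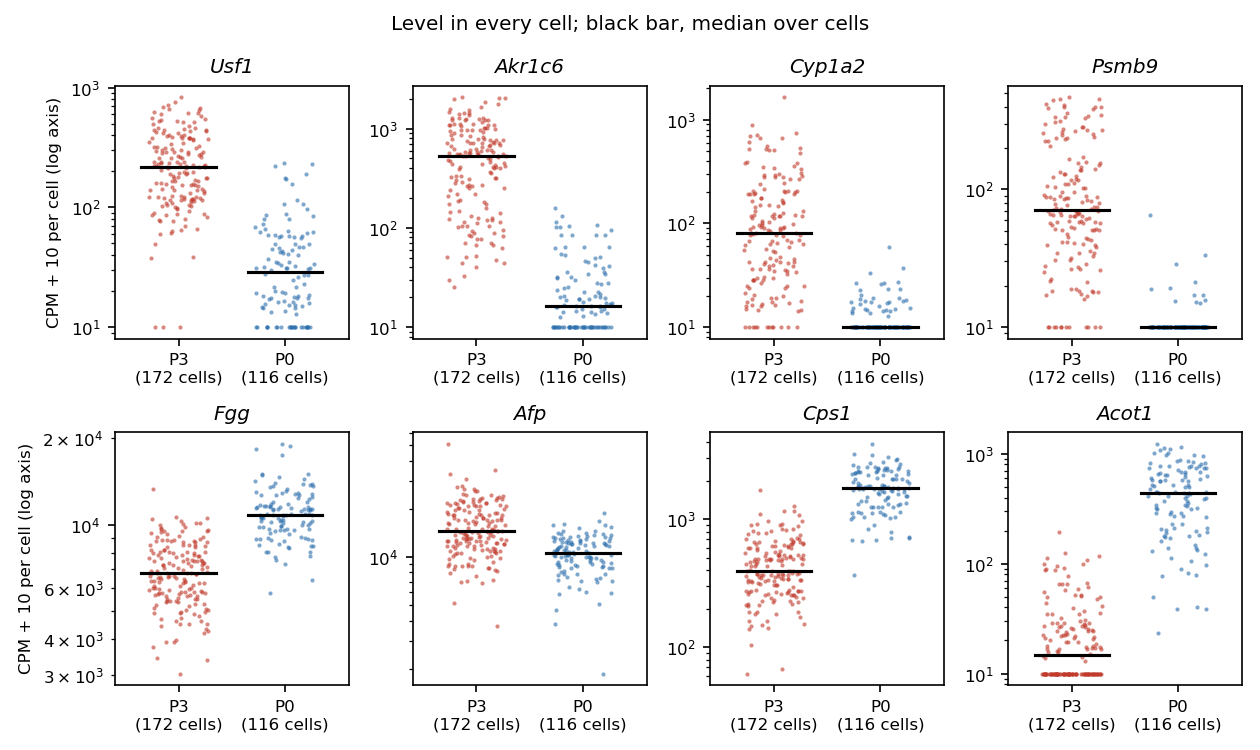
Level of 8 genes in every cell (CPM + 10, log axis), P3 cells to the left of P0 cells in each panel, with a black bar at the median. Usf1, Akr1c6, Cyp1a2 and Psmb9 sit higher in P3 cells, Cps1 and Acot1 lower, and Fgg and Afp overlap over most of their range.

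The enzymes that handle amino acid nitrogen differed in both directions at P3. Of 12 measured genes of the urea cycle and nitrogen list, 4 were lower and 3 higher, and the 4 lower ones (Ass1, Asl, Cps1 and Arg1) stayed past 2-fold in all 6 pairings. Cps1, which makes carbamoyl phosphate at the entry of the cycle, had lowest, median and highest cell levels of 52.3, 382 and 1678 CPM at P3, against 358, 1746 and 3854 CPM at P0. The ranges overlapped, with 43.6% of the P3 cells under the lowest P0 cell, and the pools stood at 477 CPM at P3 and 1788 CPM at P0, a log2 ratio of -1.91, counting interval -1.94 to -1.88. Ass1, which forms argininosuccinate, ran at 75.6, 319.95 and 1132 CPM over P3 cells, against 764, 1638 and 3131 CPM over P0 cells, and here 96.5% of P3 cells were under every P0 cell. Its pool level was 4.55-fold lower at P3 (log2 -2.19, counting interval -2.22 to -2.15).

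Asl, which splits argininosuccinate, stood at 280.8 CPM at P3, against 1088 CPM at P0 (log2 -1.95). Arg1, which releases urea, stood at 878 CPM at P3, against 3132 CPM at P0 (log2 -1.84). Otc, the mitochondrial step that makes citrulline, went the other way, with 393 CPM at P3 and 138.9 CPM at P0 (log2 1.501, counting interval 1.44 to 1.56), as did Glud1, which frees ammonia from glutamate (log2 1.23), and the ammonia transporter gene Rhbg (log2 1.01, and 0.99 without its highest P3 cell). The urea cycle genes therefore did not differ as a block: the cytosolic steps and Cps1 were lower while Otc was higher.

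Of 26 measured genes of amino acid breakdown, 9 were lower at P3 and 1 higher, with a median log2 ratio of -0.52 against -0.02 over all measured genes; 5 lower and 1 higher passed in all pairings. Sdsl, a serine dehydratase-like enzyme, stood at 11.8 CPM at P3 and 90.05 CPM at P0 (log2 -2.93, counting interval -3.11 to -2.75). Enzymes of lysine (Aass, log2 -1.95), ornithine (Oat, -1.89), methionine (Mat1a, -1.31; Gnmt, -1.65; Ahcy, -1.73; Cth, -1.12), tyrosine (Tat, -1.32) and histidine (Hal, -1.17) were lower as well. The exception was Tdo2, the first enzyme of tryptophan breakdown, at 47.6 CPM at P3 and 8.86 CPM at P0 (log2 2.43).

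Of 11 measured genes of gluconeogenesis, 4 were lower and 0 higher at P3 (median log2 -0.54), and 3 of the 4 passed in all pairings. Got1, the cytosolic aspartate aminotransferase, had cell levels of 0, 140.3 and 692 CPM (lowest, median, highest) at P3, against 169.2, 1052 and 3051 CPM at P0. Most P3 cells lay below the P0 cells, 59.3% below them all, and the pools differed 5.97-fold (log2 -2.58, counting interval -2.62 to -2.53). Slc37a4, which carries glucose 6-phosphate into the endoplasmic reticulum, was also lower (log2 -1.68), with Ppargc1a, a coactivator of the fasting response (-1.50), and Tat. The 2 best known enzymes of the route did not pass 2-fold: Pck1 stood at 894 CPM at P3 and 1527 CPM at P0 (log2 -0.77), and G6pc at 549 CPM at P3 and 798 CPM at P0 (log2 -0.54, -1.52 to 0.46 over the pairings). In glycolysis and glycogen, 1 of 19 was higher, the glycogen-targeting phosphatase subunit Ppp1r3c (log2 1.93), and 2 were lower, Aldoa (-1.69) and Pfkfb1 (-1.02). In all pairings 0 higher and 1 lower of these passed. Over all measured genes 8.66% were higher and 5.21% lower.

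Genes that break down fatty acids leaned lower at P3. Of 26 measured genes of fatty acid oxidation, 7 were lower and 1 higher (median log2 -0.35), with 4 lower ones in all pairings. The acyl-CoA thioesterase gene Acot1 was the farthest: its lowest, median and highest cell levels were 0, 4.83 and 186.2 CPM at P3, against 13.4, 430.0 and 1219 CPM at P0. At P3 66.9% of cells lay under every P0 cell. The pools stood at 16.2 CPM at P3 and 445 CPM at P0, a log2 ratio of -4.78, counting interval -4.92 to -4.64, with -5.73 to -3.44 over the pairings. Acot2 (log2 -1.72) and Acot3 (-1.38) of the same family were lower too; how reads shared by these similar genes were counted is not given in the sources used here.

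Ehhadh, the peroxisomal bifunctional enzyme, was among the lower ones, at 145.003 CPM at P3 and 624 CPM at P0 (log2 -2.10, counting interval -2.16 to -2.05). The fatty acid omega-hydroxylases Cyp4a10 and Cyp4a14 had log2 ratios of -1.62 and -1.44, and Ucp2, a mitochondrial carrier, was the higher one (1.47). These genes (Acot1, Ehhadh, Cyp4a10, Cyp4a14) are known targets of PPAR-alpha, the fatty acid receptor of the fasting liver.

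Genes of ketone bodies did not follow them: of 7 measured, 3 were higher and 0 lower at P3, and 2 of the 3 passed in all pairings. The fasting hormone gene Fgf21 stood at 58.9 CPM at P3 and 4.99 CPM at P0 (log2 3.56, counting interval 3.29 to 3.85), Bdh1, which makes 3-hydroxybutyrate, had a log2 ratio of 1.54, and Slc16a1, which exports it, 1.11. In lipid storage and transport 6 of 19 were lower and 6 higher, 2 and 1 of them in all pairings. The lower ones act in the storage and breakdown of triglyceride (Pnpla2, log2 -2.04; Plin5, -1.82; Angptl4, -1.45; Cidec, -1.28; Dgat1, -1.06, and -0.99 without its highest P0 cell; Lpl, -1.03). Among the higher ones were fatty acid binding proteins (Fabp4, 3.30, with 0.08 to 6.51 over the pairings; Fabp2, 2.49; Fabp5, 1.35) and the cholesterol exporter Abca1 (1.13).

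Cholesterol synthesis was higher at P3. Of 22 measured genes, 13 were higher and 0 lower (median log2 1.21), 6 of them in all pairings. Cyp51, which removes a methyl group from lanosterol, had lowest, median and highest cell levels of 0, 90.8 and 617 CPM at P3, against 0, 9.86 and 132.6 CPM at P0. The ranges overlapped from 0 up, with 30.2% of P3 cells above the highest P0 cell, and the pools stood at 117.9 CPM at P3 and 19 CPM at P0 (log2 2.63, counting interval 2.49 to 2.78). Idi1 and Fdps, which build the isoprenoid chain, had log2 ratios of 2.55 and 2.28, and Dhcr7, the last step to cholesterol, 2.06. At E19.5, shortly before birth, Cyp51 and Fdps had stood higher still: Cyp51 ran at 233.2, 19, 117.9 and 92.1 CPM, and Fdps at 1001, 37.3, 180.8 and 132.5 CPM at E19.5, P0, P3 and P6.

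Fatty acid synthesis had 7 of 13 measured genes higher and 2 lower (median log2 1.16), with 4 higher and 2 lower in all pairings. Srebf1, the transcription factor that drives these enzymes, ran at 0, 39.9 and 200.9 CPM over P3 cells, against 0, 3.67 and 30.5 CPM over P0 cells. Here 66.9% of P3 cells lay above every P0 cell, and the pools stood at 48.5 CPM at P3 and 6.79 CPM at P0 (log2 2.83, counting interval 2.60 to 3.08). Fasn, fatty acid synthase, had a log2 ratio of 2.55, counting interval 2.29 to 2.82, Acly, which supplies cytosolic acetyl-CoA, 2.12, and the desaturases Fads1 and Fads2 1.62 and 1.58. The lower ones were Acacb, the mitochondrial acetyl-CoA carboxylase (-2.60), and Gpam, the first enzyme of triglyceride assembly (-1.91). Both stood under 3 CPM at P3 (1.91 and 2.26 CPM, against 11.5 and 8.47 CPM at P0).

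Enzymes and transporters for drugs and steroids were mostly higher at P3. Of 30 measured drug-metabolising genes, 17 were higher and 4 lower (median log2 1.17), with 10 higher and 3 lower in all pairings. Cyp1a2, which oxidises caffeine and other aromatic amines, had cell levels of 0, 70.5 and 1626 CPM at P3, against 0, 0 and 49.4 CPM at P0. Most P0 cells had no count and 59.3% of P3 cells exceeded the highest P0 cell; the pools stood at 137.7 CPM at P3 and 3.27 CPM at P0, a log2 ratio of 5.40, counting interval 5.07 to 5.74. Ugt2b1, a glucuronosyltransferase, had a log2 ratio of 2.86, Cyp2b9 2.74 and Cyp2c29 4.49, the last from a P3 level of 9.65 CPM. The lower ones were 3 Cyp3a genes (Cyp3a13, -1.999; Cyp3a25, -1.71; Cyp3a11, -1.45) and Por, the reductase that feeds electrons to the Cyp enzymes (-1.30). Members of the Cyp2a, Cyp2c and Cyp3a families are alike in sequence, so a single member's value is uncertain as to the gene.

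Akr1c6, a hydroxysteroid dehydrogenase, differed by a like amount in all pairings. Its lowest, median and highest cell levels were 15.5, 519.6 and 2047 CPM at P3, against 0, 6.42 and 148.4 CPM at P0. At P3 76.7% of cells lay above every P0 cell. The pools stood at 579.7 CPM at P3 and 20.6 CPM at P0, a 28.1-fold difference (log2 4.81, counting interval 4.68 to 4.95, with 4.67 to 5.11 over the pairings). It was on the list of bile acids, where 2 of 17 measured genes were higher, Akr1c6 and the conjugating enzyme Baat (2.03), and 2 lower, Cyp7a1 and Cyp27a1, which start the classic and alternative routes (-1.25 and -1.26). Only Akr1c6 among them passed in all pairings. Over all measured genes 8.66% were higher and 5.21% lower.

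Mettl7b, a thiol methyltransferase, stood at 217.4 CPM at P3 and 3.27 CPM at P0 (log2 6.06, counting interval 5.73 to 6.40), and the sulfotransferase gene Sult1c2 at 48.2 CPM at P3 and 1.25 CPM at P0 (log2 5.27). BC023105 had 1227 counts at P3, against 3 counts at P0, a ratio of 370.0 with a counting interval of 126.3 to 1797. Gm15772 was the least even of these: its 87 P3 cells with a spike-in share of 0.2 to 1.7% stood at 76.6 CPM, the other P3 groups at 3.44 CPM (1.7% or more) and 4.28 CPM (under 0.2%), and the P0 groups at 1.19 and 0.713 CPM.

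Genes that later mark the zones of the liver lobule differed in both directions. Of 22 measured pericentral genes, which mark cells near the central vein, 9 were higher and 3 lower (median log2 0.17), with 7 higher and 1 lower in all pairings. Among the higher ones were Lect2, a secreted chemotactic protein (2.28), the carboxylate transporter gene Slc13a3 (2.11), the amino acid transporter gene Slc1a4 (2.24) and Gulo, the last enzyme of vitamin C synthesis (1.24), beside Cyp1a2. Of 22 measured periportal genes 5 were higher and 5 lower, 1 and 2 of them in all pairings, with Ass1, Arg1, Hal, Cyp17a1 (-1.37) and Aldh1b1 (-1.09) on the lower side and Mup20, Igf1, Apoa4, Cyp2f2 and Pigr on the higher one. Pigr, which carries antibodies across epithelia, stood at a log2 ratio of 1.02, and at 0.82 without its highest P3 cell. The log2 ratio of Mup20, a urinary protein gene of a near-identical family, ranged over -0.15 to 7.12 in the pairings.

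Among secreted proteins, complement differed most. Of 17 measured complement genes, 9 were higher and 0 lower at P3 (median log2 1.01), 3 of them in all pairings. C4bp, an inhibitor that binds C4b, had cell levels of 0, 107.8 and 611 CPM at P3, against 0, 6.99 and 167.99 CPM at P0. The ranges overlapped, with 27.9% of P3 cells above the highest P0 cell, and the pools differed 6.62-fold (log2 2.73, counting interval 2.59 to 2.87). Mbl2, a lectin that starts the lectin route, stood at 662 CPM at P3 and 158.9 CPM at P0 (log2 2.06, counting interval 2.01 to 2.11), and C8g, a chain of the membrane attack complex, at 404 CPM at P3 and 131.5 CPM at P0 (1.62).

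Of 31 measured plasma protein genes 6 were higher and 0 lower, and 2 of the 6 passed in all pairings. The 6 were the thyroxine carriers Ttr (16883 CPM at P3 and 7362 CPM at P0, log2 1.20) and Serpina7 (1.99), the heme carrier Hpx (1.31), ceruloplasmin (Cp, 1.59), the glucocorticoid carrier Serpina6 (1.76) and Apoa4 (1.95), a lipoprotein of fat feeding. In coagulation 2 of 22 were higher, F5 (1.43) and Serpind1, heparin cofactor (1.09), and 1 was lower, Pros1, protein S (-1.59). Of these coagulation genes 1 higher and 0 lower passed in all pairings. Over all measured genes 8.66% were higher and 5.21% lower. In the acute phase list 4 of 14 were higher and 1 lower: Orm1 (29.8 CPM at P3 and 0.387 CPM at P0, log2 6.26), Steap4 (4.39, and 7.08 without its highest P0 cell), Lcn2 (2.30, with -0.14 to 3.88 over the pairings) and Saa4 (2.28), against Serpina3k. Serpina3k, a protease inhibitor gene, ran at 0, 14.7 and 2017 CPM over P3 cells, against 0, 54.1 and 5700.4 CPM over P0 cells (log2 of the pools -3.31, counting interval -3.38 to -3.24). Its pool level at P0 rested on the upper cells, as the median shows.

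Genes of antigen presentation and of the interferon response were higher at P3 as a group; these 3 lists (antigen processing and MHC class I, MHC class II, interferon-inducible GTPases) were put together after their values were seen, so their counts only describe. Of 18 measured genes of antigen processing and MHC class I, 17 were higher and 0 lower (median log2 2.14), 8 in all pairings. Of 12 GTPases that interferon induces, 12 were higher (median 3.53), 6 in all pairings. Of 5 MHC class II genes, 5 were higher, 2 in all pairings. A shorter interferon list, drawn up with earlier results known, had 9 of 12 higher and 1 lower, Rsad2 (-2.75, with -7.43 to 0.39 over the pairings). Of its 9 higher genes, 3 passed in all pairings. A single P0 cell, cell 13 in the group of 1.7% or more, stood apart in many of these genes, and it held 88.3% of the P0 counts of Rsad2 and 94.1% of those of Gbp2; 1 P3 cell held 72.9% of the P3 counts of Rsad2. Without P0 cell 13, an alternative set after the data were seen, the log2 ratio of Rsad2 was 0.32, and the shorter list had 11 of 12 higher and 0 lower. Without it 17 genes of antigen processing and MHC class I (median log2 2.24), 12 GTPases (4.62) and 5 MHC class II genes (7.89) were higher.

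The promoters of 6 of these genes are shown, 5 with a match to a sequence that interferon-activated factors bind and 1 (Psmb9) without. Each is the RefSeq window on GRCm38.p6 from 250 bases before to 50 bases after the start of transcription, read 5′ to 3′ on the gene's strand, with matches to the interferon-stimulated response element (GAAA, any 2 bases, GAAA) or the gamma-activated site (TTC, any 3 bases, GAA), on either strand, in capitals.
Gbp2 (chr3:142620413-142620712, + strand): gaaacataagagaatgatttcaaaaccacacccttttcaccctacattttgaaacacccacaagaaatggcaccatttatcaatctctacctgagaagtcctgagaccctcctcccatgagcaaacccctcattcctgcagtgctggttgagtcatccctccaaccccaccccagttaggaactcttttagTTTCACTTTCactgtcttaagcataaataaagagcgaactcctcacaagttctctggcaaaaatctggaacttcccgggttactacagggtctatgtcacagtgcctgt
B2m (chr2:122147437-122147736, + strand): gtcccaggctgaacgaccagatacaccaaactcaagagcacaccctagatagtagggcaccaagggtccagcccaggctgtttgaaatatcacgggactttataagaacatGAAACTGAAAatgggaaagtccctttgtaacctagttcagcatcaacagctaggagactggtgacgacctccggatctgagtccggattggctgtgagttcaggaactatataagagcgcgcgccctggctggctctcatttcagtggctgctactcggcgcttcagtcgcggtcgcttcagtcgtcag
Psme1 (chr14:55578244-55578543, + strand): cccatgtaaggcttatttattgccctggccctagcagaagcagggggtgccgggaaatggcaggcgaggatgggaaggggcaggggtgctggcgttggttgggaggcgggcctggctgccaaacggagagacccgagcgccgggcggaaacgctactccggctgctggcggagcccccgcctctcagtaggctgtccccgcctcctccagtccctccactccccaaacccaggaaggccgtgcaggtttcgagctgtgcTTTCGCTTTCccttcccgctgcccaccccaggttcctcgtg
Irgm1 (chr11:48871371-48871670, - strand): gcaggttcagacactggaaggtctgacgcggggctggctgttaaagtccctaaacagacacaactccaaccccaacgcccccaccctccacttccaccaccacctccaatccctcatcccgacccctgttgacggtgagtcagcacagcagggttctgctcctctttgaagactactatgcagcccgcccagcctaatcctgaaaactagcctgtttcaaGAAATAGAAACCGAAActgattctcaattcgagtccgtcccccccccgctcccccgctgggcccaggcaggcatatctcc
Psmb8 (chr17:34197945-34198244, + strand): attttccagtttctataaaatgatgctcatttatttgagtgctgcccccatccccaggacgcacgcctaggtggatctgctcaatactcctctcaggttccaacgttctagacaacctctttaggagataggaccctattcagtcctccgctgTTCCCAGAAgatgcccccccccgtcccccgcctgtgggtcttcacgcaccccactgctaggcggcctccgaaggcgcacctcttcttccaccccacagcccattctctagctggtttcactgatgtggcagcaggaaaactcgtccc
Psmb9 (chr17:34187281-34187580, - strand): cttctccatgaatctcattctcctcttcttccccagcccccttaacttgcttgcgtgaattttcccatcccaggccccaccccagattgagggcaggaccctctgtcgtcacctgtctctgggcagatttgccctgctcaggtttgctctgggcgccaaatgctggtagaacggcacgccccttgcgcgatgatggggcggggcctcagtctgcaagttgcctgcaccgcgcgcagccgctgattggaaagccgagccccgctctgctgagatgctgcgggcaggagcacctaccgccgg
Gbp2, a guanylate-binding protein, has 1 response element match that begins 59 bases before the start, and B2m, the light chain of MHC class I, has 1 farther upstream. Psme1, an activator of the proteasome, has its match downstream of the start, and Irgm1, an immunity-related GTPase, has 2 that overlap. Psmb8, the immunoproteasome subunit, has 1 gamma-activated site match and no response element match. Psmb9 has neither, and nor has Tap1, whose window overlaps that of Psmb9 on the other strand. Over all genes with a promoter in the table, the response element was in 8.81% of those higher at P3, 2.95% of those lower and 3.65% of the 5801 measured, and the gamma-activated site in 11.1% of higher genes, 4.80% of lower genes and 8.15% of measured genes. Of the 42 higher genes with the response element, 16 came from the interferon list and the lists chosen after values were seen. These lists held 30 of the 477 higher genes with a promoter. For the gamma-activated site 7 of 53 came from them. The E-box CACGTG, the site of Usf1, was in 10.9% of higher genes and 15.1% of lower genes, against 12.8% of measured genes. A match describes these letters only.

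Psmb9 and Psmb8, which replace standard subunits of the proteasome for antigen processing, were higher in every group of P3 cells. Psmb9 had cell levels of 0, 60.5 and 456 CPM at P3, against 0, 0 and 54.7 CPM at P0. Cells at P3 lay higher, 55.2% above the highest P0 cell, and the pools stood at 116.1 CPM at P3 and 1.81 CPM at P0 (log2 6.01, counting interval 5.57 to 6.48, 4.12 to 8.05 over the pairings, and 7.12 without P0 cell 13). Psmb8 stood at 710.4, 130.1 and 142.6 CPM in P3 cells with spike-in shares of 1.7% or more, 0.2 to 1.7% and under 0.2%, against 10.5 and 5.28 CPM in P0 cells of 1.7% or more and 0.2 to 1.7%; without P0 cell 13, the P0 cells of 1.7% or more stood at 3.74 CPM. Tap1, which pumps peptides to MHC class I, had a log2 ratio of 3.77 (1.77 to 5.52 over the pairings), Gbp11 5.51 and Ifi47, another induced GTPase, 4.46. B2m itself stood at 3249 CPM at P3 and 1392 CPM at P0 (log2 1.22).

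The MHC class II genes instead sat in 1 group of P3 cells. Cd74, the invariant chain that guides class II molecules, stood at 286.5 CPM in the 40 P3 cells with a spike-in share of 1.7% or more, and at 5.65 and 5.41 CPM in the P3 cells of 0.2 to 1.7% and under 0.2%. At P0 it had 1 count in all, so that the pool ratio of 1753 has a counting interval of 314.3 to 69291. Cd74, H2-Ab1 and H2-Eb1, the last 2 being chains of class II molecules, all had a count in 37 of those 40 cells, against 3 of the 87 and 2 of the 45 other P3 cells and 0 of 39 and 0 of 77 P0 cells. The chain gene H2-Aa had 0 counts at P0 and was at least 241.6-fold higher at P3, set against a floor of 3 counts in the P0 pool.

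Gbp2 and Ubd shared that pattern. Gbp2 stood at 418, 11.4 and 14.4 CPM in the P3 groups of 1.7% or more, 0.2 to 1.7% and under 0.2%, against 10.8 and 0.0713 CPM in the P0 groups of 1.7% or more and 0.2 to 1.7%. P0 cell 13 stood at 226.1 CPM of Gbp2, against at most 5.22 CPM in every other P0 cell, and without it the P0 group of 1.7% or more stood at 0.567 CPM. Ubd, a ubiquitin-like protein that cytokines induce, stood at 212.3, 7.12 and 2.25 CPM in the same P3 groups, against 0.217 and 1.14 CPM in the P0 groups, where 1 cell held 88.9% of its P0 counts. Without the 40 P3 cells of the highest spike-in share, the log2 ratio was 1.48 for Gbp2, 2.96 for Ubd, 3.22 for H2-Ab1 and 1.00 for H2-Eb1, and the list medians were 1.501 for antigen processing and MHC class I, 1.81 for the GTPases and 3.22 for MHC class II. With P0 cell 13 left out as well, the log2 ratio of Gbp2 was 5.53, and the list medians were 1.79 for antigen processing and MHC class I, 2.86 for the GTPases and 3.19 for MHC class II.

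Markers of liver macrophages, which carry class II molecules, were highest in the same 40 cells. Their summed level over the 11 listed genes in the table was 196.8 CPM there, 27.9 and 26.1 CPM in the other P3 groups (0.2 to 1.7% and under 0.2%), and 16.6 and 68.96 CPM in the P0 groups (1.7% or more and 0.2 to 1.7%). Marco, a scavenger receptor gene of macrophages, stood at 40.1, 4.37 and 6.76 CPM in the P3 groups and 0.433 and 6.13 CPM in the P0 groups in the same order, and Ptprc, a marker of leukocytes, at 0.626, 0.0672 and 0.225 CPM in the P3 groups, against 0 and 0.214 CPM in the P0 groups. The part of macrophage RNA in the class II and interferon values was not tested.

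**Figure D3:**
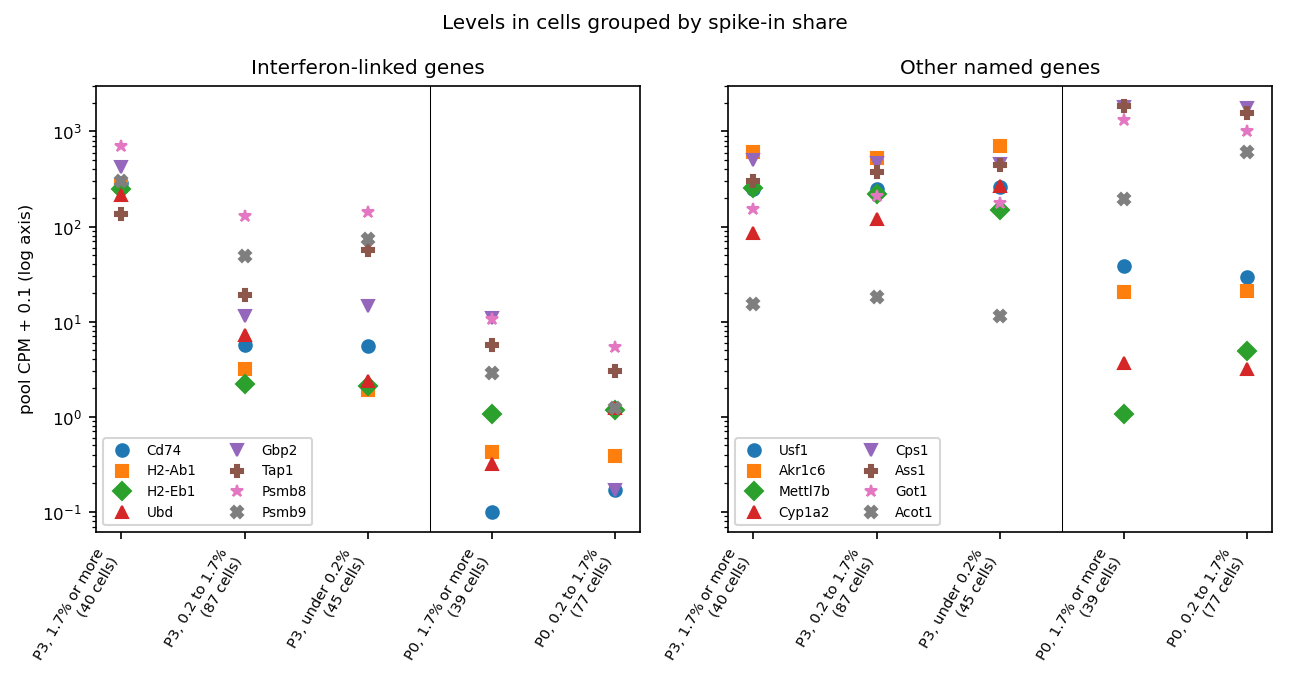
Pool level (CPM + 0.1, log axis) of 8 interferon-linked genes (left) and 8 other named genes (right) in the 3 P3 and 2 P0 groups of cells by spike-in share, P3 to the left of the line. Cd74, H2-Ab1, H2-Eb1, Ubd and Gbp2 peak in the P3 group of 1.7% or more, where Cd74 stands at 286.5 CPM, while Usf1 holds 250.3, 249.98 and 262.7 CPM across the P3 groups.

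Among growth factors, Igf1, the main growth factor made by liver, had lowest, median and highest cell levels of 0, 135.4 and 858 CPM at P3, against 0, 3.06 and 294.4 CPM at P0. The ranges overlapped with P3 cells higher, and the pools stood at 196.2 CPM at P3 and 20.4 CPM at P0 (log2 3.27, counting interval 3.13 to 3.41, 2.17 to 4.01 over the pairings). The growth hormone and IGF list had 5 of 14 measured genes higher (with Igf1, the prolactin receptor Prlr at 1.93, the IGF carrier Igfals at 1.65, the growth hormone receptor Ghr at 1.06 and Igf2 at 1.004, or 0.99 without its highest P3 cell) and 2 lower, Igfbp3, which binds IGFs (-5.06, and -5.73 without its highest P3 cell, from 0.311 CPM at P3 and 10.4 CPM at P0), and Irs1 (-1.08, with -2.78 to 2.12 over the pairings). In all pairings 2 of the higher genes and 1 of the lower genes of this list passed.

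Of 20 measured cell cycle genes, 8 were higher and 0 lower (median log2 0.82), but 1 of them passed in all pairings, Ccnd1, the G1 cyclin (28.2 CPM at P3 and 1.89 CPM at P0, log2 3.90, counting interval 3.46 to 4.37). Summed over the list, the median cell stood at 257.8 CPM at P3 and 209.5 CPM at P0 and the highest at 7057 CPM at P3 and 4844 CPM at P0, so that the medians lay closer together than the summed pool levels of 536 CPM at P3 and 309.5 CPM at P0. The mitotic genes were uneven within P3: Birc5, a protein of the chromosomal passenger complex, stood at 2.66, 15.1 and 61.3 CPM in the P3 groups of 1.7% or more, 0.2 to 1.7% and under 0.2%, against 2.06 and 5.92 CPM in the P0 groups, and its log2 ratio ranged over -1.15 to 4.90; 1 cell held 61.8% of its P0 counts.

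The list counts in this paragraph stand beside 8.66% higher and 5.21% lower over all measured genes. Of 30 measured transcription factors, 2 were higher, Usf1 and Cebpa, a main factor of hepatocyte differentiation (1.31), and 1 lower, Klf15, a factor of fasting (-1.13). Of these only Usf1 passed in all pairings. The other 3 factors that the study knocked out at later ages did not pass 2-fold, at log2 ratios of -0.11 for Nr2f2, 0.57 for Xbp1 and -0.68 for Tef. In the fetal liver list 2 of 14 were higher, Igf2 and the growth inhibitor Cdkn1c (1.39), and 1 lower, Bex1 (-1.72), with 0 of them in all pairings. In iron and metals 4 of 20 were higher (Cp, Slc30a10, Slc39a14 and Hamp) and 1 lower (Alas1, the first enzyme of heme synthesis, -1.07), with 1 higher and 0 lower in all pairings. The log2 ratio of Hamp, the iron hormone hepcidin, was 1.05, but ranged over -1.92 to 2.21 in the pairings and was 0.9995 without its highest P3 cell.

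Of some large lists few members passed 2-fold, against the background of 8.66% higher and 5.21% lower. Of 22 genes of the unfolded protein response 0 passed 2-fold, of 43 of oxidative phosphorylation 0 were higher and 2 lower (Cycs, -1.29, and Cyc1, -1.02), and of 78 ribosomal protein genes 2 were higher and 0 lower. Below a log2 ratio of 0 lay 34 of the 43 genes of oxidative phosphorylation and 67 of the 78 ribosomal protein genes, against 8 of the 22 of the unfolded protein response. The median log2 ratios of the unfolded protein response, oxidative phosphorylation and ribosomal protein genes were 0.26, -0.32 and -0.38. Of 14 clock genes 2 were higher, among them Bhlhe40 (1.35), and 1 lower (Per1, -1.06, and -0.95 without its highest P0 cell), of 13 genes of ATF4 and amino acid supply 1 was higher (the stress protein Nupr1, 3.03, and 3.95 without its highest P0 cell), of 9 p53 targets 1 was lower (Plk2, -1.18), and of 3 sex-linked genes 0 passed.

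**Figure D4:**
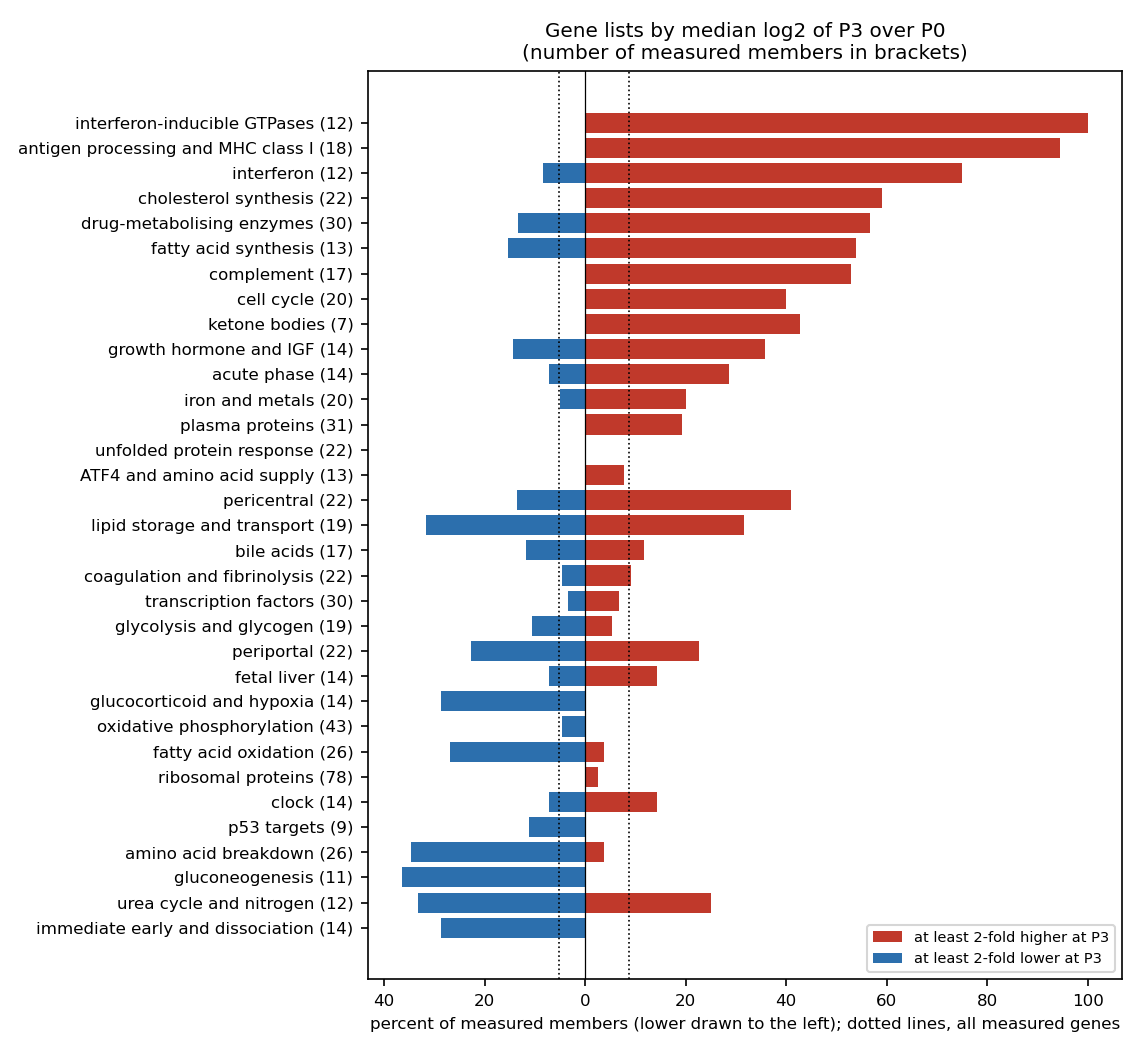
Share of the measured members of each list (7 or more measured) that were at least 2-fold higher at P3 (red, to the right) or lower (blue, to the left), in percent, with dotted lines at the 8.66% and 5.21% of all measured genes. Interferon GTPases, antigen processing, the shorter interferon list, cholesterol synthesis and drug-metabolising enzymes reach furthest to the right, and gluconeogenesis and amino acid breakdown to the left.

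The genes that were lowest at P3 relative to P0, beside Acot1, Serpina3k and Sdsl, had varied roles. Rbp2, a retinol-binding protein gene best known from the gut, had cell levels of 0, 0 and 79.6 CPM at P3, against 0, 115.4 and 859 CPM at P0. The ranges overlapped from 0 to 79.6 CPM, and the pools stood at 7.31 CPM at P3 and 158.3 CPM at P0 (log2 -4.44, counting interval -4.66 to -4.22). Ggt1, which splits glutathione outside the cell, ran at 0, 0 and 67.8 CPM over P3 cells, against 0, 45.9 and 146.2 CPM over P0 cells (log2 of the pools -3.02, counting interval -3.26 to -2.79). Tmsb10, a small protein that binds actin monomers, stood at 20.5 CPM at P3 and 159.6 CPM at P0 (-2.96), and Gpx3, a secreted glutathione peroxidase, at 3.85 CPM at P3 and 45 CPM at P0 (-3.55).

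Cebpd, a transcription factor of the acute phase, stood at 5.14 CPM at P3 and 50.4 CPM at P0 (log2 -3.30, counting interval -3.57 to -3.04), and the stress kinase gene Mapk13 at 5.37 CPM at P3 and 40.4 CPM at P0 (-2.91). The log2 ratios of the predicted genes Gm16573 and Gm12840 were -2.79 and -2.58. Of 14 immediate early and dissociation genes, 4 were lower and 0 higher (Fos, Myc, Junb and Ier2), 0 of them in all pairings. Fos, which is induced within minutes of stress, stood at 1.41, 6.39 and 0.901 CPM in the P3 groups of 1.7% or more, 0.2 to 1.7% and under 0.2%, against 0.433 and 64.5 CPM in the P0 groups of 1.7% or more and 0.2 to 1.7%. In the glucocorticoid and hypoxia list 4 of 14 were lower (the glucose transporter gene Slc2a1, -1.44; Klf9, -1.18; Bnip3, -1.17; and Per1) and 0 higher. Of the 4 lower genes, 1 passed in all pairings.

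The neighbouring ages place these differences in time, although Xist stood at 46.2 CPM at E19.5, so that the E19.5 cells also differed in sex. Several genes that were lower at P3 had peaked at P0. Cps1 stood at 268.5, 1788, 477 and 473 CPM at E19.5, P0, P3 and P6, Got1 at 97.6, 1124, 188.2 and 144.5 CPM, and Acot1 at 38.4, 445, 16.2 and 4.9 CPM. Pck1 stood at 10.2, 1527, 894 and 1008 CPM, so it remained far above its E19.5 level at P3. Others went down at each step: Tmsb10 stood at 2201, 159.6, 20.5 and 8.97 CPM. Usf1 went up at each step, at 15.7, 33.1, 252.3 and 551 CPM. Akr1c6 dipped at P0, with 118.3, 20.6, 579.7 and 1103 CPM over the same ages.

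**Figure D5:**
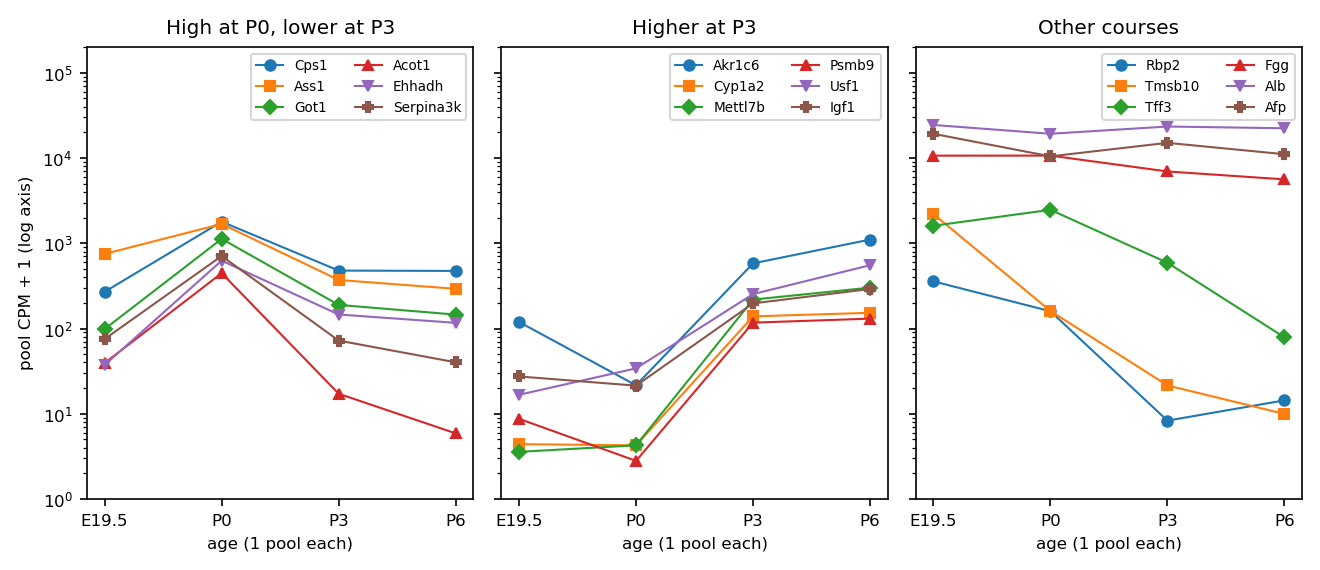
Pool level (CPM + 1, log axis) of 18 genes at E19.5, P0, P3 and P6, 1 pool per age. Cps1, Got1 and Acot1 are highest at P0, Usf1 climbs at each age to 551 CPM at P6, and Fgg, Alb and Afp stay within a narrow band.

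Markers of other cell types were low beside the hepatocyte markers, whose summed level was 115893 CPM at P3 and 98616 CPM at P0. Erythroid genes summed to 519 CPM at P3 and 913 CPM at P0, with medians over cells of 58.5 CPM at P3 and 58.6 CPM at P0, so that a few cells held most of it. Macrophage genes summed to 69.6 CPM at P3 and 48.2 CPM at P0, neutrophil and lymphocyte genes to 12.5 CPM at P3 and 58.6 CPM at P0. The neutrophil and lymphocyte sum was uneven over the spike-in groups. It was 146.5 CPM in P0 cells of 1.7% or more (lowest cell 26.3 CPM), against 0.713 CPM in those of 0.2 to 1.7%. In P3 cells of 1.7% or more, 0.2 to 1.7% and under 0.2% it was 7.36, 2.29 and 54.1 CPM. The cause was not tested. Endothelial genes summed to 11 CPM at P3 and 11.8 CPM at P0, stellate genes to 17.1 CPM at P3 and 4.17 CPM at P0, cholangiocyte genes to 8.29 CPM at P3 and 3.87 CPM at P0, and megakaryocyte genes to 0.895 CPM at P3 and 2.11 CPM at P0. Leaving out the 11 P3 and 4 P0 cells in which such genes took over 0.1% of counts left 664 genes higher and 410 lower at P3.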

How the data were processed

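The authors deposited whole-number counts per gene symbol for the mSTRT-seq cells, without normalization, in a table of 40824 genes and 92 ERCC spike-in entries; 1578 columns of other groups in it were not used. Per the submitters' processing notes, the tools were featureCounts 1.5.3 and 2.0.0, HTSeq 0.6.0, SAMtools 1.3.1, HISAT2 2.1.0, TopHat2 2.1.0, UMI-tools 0.5.0, Trimmomatic 0.39, TopHat and Bowtie2, and the builds mm10 and GRCm38. Not given in the sources used here are their roles, the use of strand, and whether counts are molecules or reads. Values of near-identical families and of overlapping or antisense genes are thus uncertain as to the gene.

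Spike-ins were dropped, and counts were summed over the P3 and over the P0 cells and scaled to counts per 1000000 (CPM). With 1 pool per age, genes were called by a 2-fold difference, without a test, among genes at a mean of at least 5 CPM and with a count in at least 10% of the cells of an age. Pool levels carry exact Poisson intervals and shares of cells exact binomial (Clopper-Pearson) intervals. Intervals of ratios were made from the exact binomial interval of the P3 share of a gene's summed counts. All are at 95% and for counting error only, since amplified reads are not independent molecules. Pools at 0 were set to 3 counts for a fold. Shares were repeated on cells thinned to 50000 counts, leaving out 2 P3 and 1 P0 cells below that. No doublet caller was run, as cells were picked singly, and 0 pairs of cells had identical counts. Column names give no barcodes.

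The members and lists were chosen with earlier results of these data known, and the antigen, MHC class II and GTPase lists after their values were seen. Named were the 12 largest differences in each direction at 20 CPM or more and in 25% of the cells of an age, the markers, a core set, and up to 4 members per list with the largest log2 ratio; further members in the text were chosen after their values were seen. A few members of the lists are counted but not reported by name here. Promoters are from RefSeq (GRCm38.p6), matched by symbol for 5801 of 7676 measured genes. Python 3.11.15, pandas 2.3.3, NumPy 2.4.6 and SciPy 1.17.1 were used, with edgeR 4.0.16 for TMM factors. The calls were also run on simulated counts with noise drawn independently for each cell and gene. That simulation held no animals or spike-in groups, so it cannot show how the calls behave where cells differ by group. Alternatives covered scaling, filters, fold, thinning, extreme cells, cells with other cell types' genes, the spike-in groups and, set after the data were seen, the highest cell of an age for each gene.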

Additional observations from a re-analysis of the deposited data

How the results depend on the processing

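Against 8.66% of measured genes higher and 5.21% lower at P3 (665 and 400 genes), the counts were 660 and 411 with TMM scaling, 688 and 382 with median-of-ratios scaling, and 704 and 461 with thinned cells. The shares moved by over 1.5 times with no filter on low values (16.2% higher and 11.9% lower), a fold of 1.5 (17.6% and 15.8%) and a fold of 4 (2.54% and 0.638%). A filter of 20 CPM and 25% of cells left 4187 genes, with 7.93% higher and 5.21% lower. These settings change by construction how many genes enter or pass. Among cells with a spike-in share of 1.7% or more at both ages, an alternative chosen after seeing the data, 14.4% of genes were higher (1094) and 536 genes lower, and the median log2 ratio of all genes was 0.10, against -0.02 in the full pools. Of all calls, 62.4% were on the higher side in the full pools, 79.9% at a fold of 4, 52.7% at 1.5, and 54.9% among cells of 0.2 to 1.7% at both ages (630 higher and 518 lower). In the group of 1.7% or more at both ages, Fos reversed to a log2 ratio of 1.701 and Hamp to -0.12; the cause was not tested. Of the other values followed under the alternatives, 66.7% of gene ratios stayed within their counting error and 95% of list medians within 1.5-fold. Without P0 cell 13, which stood apart in interferon genes, 8.63% of genes were higher and 5.27% lower. Counting error limits genes with few counts: Cd74 and BC023105 rest on 1 and 3 counts at P0. No paired analysis was possible because the replicate numbers only number the cells of an age and no result comes from a test. Leaving out a replicate was not possible either, since each age is 1 pool.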
